A study of Mus musculus with 24 samples.

Results

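In mouse oocytes grown in culture, 8 genes were examined that write or direct methylation of lysine 9 of histone H3 (H3K9) or that protect imprinted DNA methylation. They were the histone methyltransferase genes Setdb1, Suv39h1, Suv39h2, Ehmt1 and Ehmt2, the co-repressor gene Trim28, and the genes of the zinc finger proteins Zfp57 and Zfp445. The genes were chosen by name for their known function and make up 8 of the 16572 gene names of the RNA-seq table. All 8 had a row, and all 8 passed the filter on low values described below. The RNA-seq libraries came from class IV oocytes, which form the largest of the size classes collected, taken from mouse ovaries at 7 days of age and grown outside the follicle. The labels give the strain as C57BL/6 Barb, while the methods describe mice of C57 Black6 background bred with SV129 background. One group, IV 5% O2, was grown for 9 days in 5% O2, and the other, IV 20% O2, for 14 days in 20% O2. The labels give both a size of 60 to 70 μm and no genetic change or added drug, but the text of the study gives a smaller size range for class IV oocytes of the 20% O2 cultures. The medium was changed more often in 5% O2 than in 20% O2. Each group has 2 libraries, made from pooled oocytes, but the deposited table holds 1 pooled value per gene and group. The other 20 of the 24 samples measured DNA methylation and are not analysed here.

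Methylation of H3K9 marks silent chromatin. SETDB1 and the SUV39H enzymes add the trimethyl form, SETDB1 mostly along chromosome arms and at retrotransposons and the SUV39H enzymes mostly at pericentromeric repeats, while EHMT1 and EHMT2 act as a pair that adds the mono- and dimethyl forms in euchromatin. TRIM28 does not bind DNA itself. It is brought to its targets by zinc finger proteins with a KRAB domain and recruits SETDB1 and HP1 proteins there. ZFP57 and ZFP445 are zinc finger proteins of this kind that bind imprinting control regions and keep their methylation when the rest of the genome loses it after fertilisation. Transcripts of such factors are stored by the growing oocyte for the early embryo.

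All values below are the authors' pooled values for a group. They are reads scaled to a total of 1000000 reads per column (RPM), with no correction for length, and the depth was 132185258 reads in IV 5% O2 and 40875359 reads in IV 20% O2. Levels are compared between genes only as RPM per kb of annotated exon. Differences are log2(RPM + 1) in IV 5% O2 minus that in IV 20% O2, a scale on which changes of low genes come out too small. A gene is called at least 2-fold higher or lower where this difference is at least 1 in size, so a low gene can have a ratio of RPM over 2 and not be counted. Because the values of single libraries were not separated, no SD or p-value could be attached to any difference. The 95% intervals, exact Poisson for a level and Clopper-Pearson for a log2 ratio of reads, cover counting error only and compare these libraries rather than the conditions. Oxygen, days of culture, how often the medium was changed, any difference in oocyte size and the libraries of a group cannot be told apart. In pooled cells, fewer cells of a type and less RNA per cell cannot be told apart either. A gene entered the comparison with a mean of at least 1 RPM, and 14704 genes did.

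Markers of oocytes and of other ovarian cells were summed in RPM, and the sums serve only to set each list side by side in both columns. The 10 oocyte markers include the zona pellucida genes and Gdf9. They summed to 9360 RPM in the IV 5% O2 column and 13137 RPM in the IV 20% O2 column. Of the 10, 8 were lower and 2 higher in IV 5% O2. Zp2, Zp3 and Kit were at least 2-fold lower, 3 of 10 beside 9.22% of all genes tested. Zp2 had 1537 RPM against 3807 RPM, and Zp3 had 690 RPM against 1501 RPM. Nobox was higher by 0.87 and Nlrp5 by 0.06. Of 11 granulosa cell markers 6 were listed, with a sum of 41.3 RPM against 29.8 RPM. Fshr had no reads in IV 5% O2 and Inha none in IV 20% O2. Of 12 theca and stroma markers 8 were listed, with a sum of 38.4 RPM against 4.97 RPM, and 3 of them, Vim, Dcn and Col1a2, were without reads in the IV 20% O2 column. All 8 listed theca and stroma markers had the higher RPM in IV 5% O2. Of the 6 that passed the filter, 5 were at least 2-fold higher, beside 18.7% of all genes tested. The listed markers summed to 17.9 RPM and 21.1 RPM for macrophages, 61.0 RPM and 36.1 RPM for endothelial cells, and 1.32 RPM and 1.57 RPM for erythroid cells. The part of these cells in the differences below was not tested.

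The median gene was higher in IV 5% O2 by 0.26 on the log2(RPM + 1) scale. This median was -0.04 after median-ratio scaling, 0.06 after quantile normalization and 0.10 when reads were scaled to the total counted on genes, so the differences of the 8 genes and the medians of the lists are also given relative to the median gene. One of the 8 genes, Suv39h2, was at least 2-fold higher in IV 5% O2, beside 18.7% of all genes tested. None was at least 2-fold lower, beside 9.22% of all genes tested. With 8 genes, these counts lie near those backgrounds. The median difference of the 8 genes was 0.33, which is 0.07 above the median gene. Of the 8, 6 were higher in IV 5% O2 and 2 were lower, where 62.6% of all genes tested were higher, and 4 lay above the median gene. The 4 above it were Suv39h2, Zfp57, Trim28 and Ehmt2, and the 4 below it were Ehmt1, Setdb1, Suv39h1 and Zfp445. The 8 genes did not share a direction, and each of the enzyme pairs lay on both sides of the median gene.

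**Figure D1:**
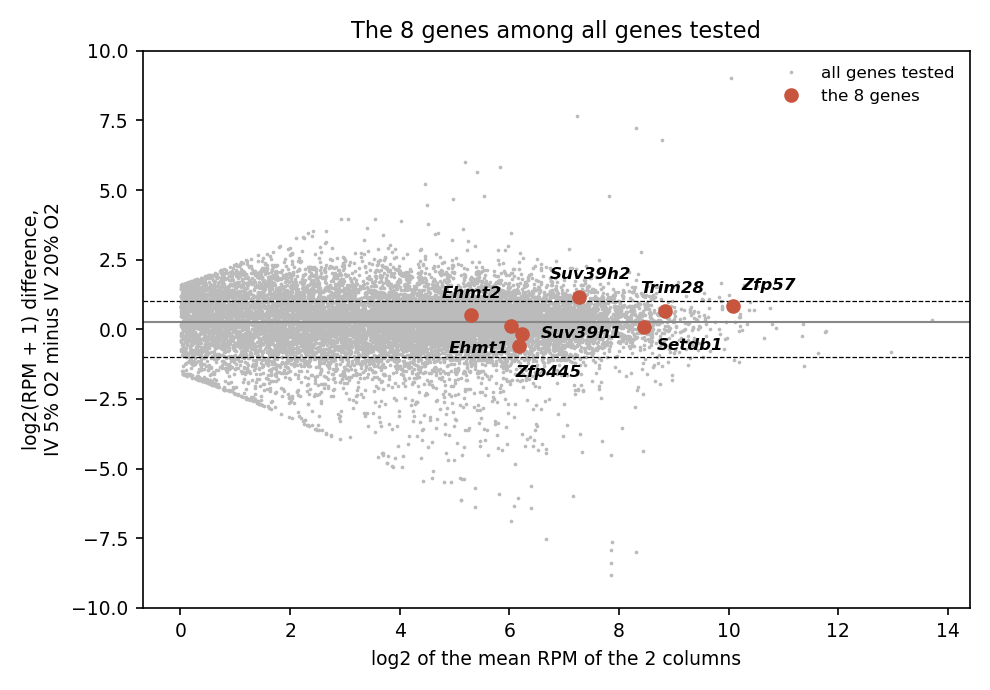
The log2(RPM + 1) difference, IV 5% O2 minus IV 20% O2 (vertical axis), against the log2 of the mean RPM of both columns (horizontal axis) for the 14704 genes tested (grey points) and the 8 genes (red points). The solid line is the median of all genes, 0.26, the dashed lines mark 2-fold, and only Suv39h2 of the 8 genes lies outside them.

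Promoters are shown for 5 of the genes. They belong to the genes with the largest differences, namely Suv39h2, Zfp57, Trim28 and Zfp445, or to Ehmt2, which holds the letters ACGTG described below. Sequences are from RefSeq on GRCm38.p6, 5′ to 3′ on the strand of the gene, and cover up to 250 bases before the most upstream RefSeq start site, cut where an annotated exon begins. Capitals mark the letters ACGTG and TGCCGC, both searched on both strands and marked also as their reverse complements. ACGTG is a form of the core bound by hypoxia-inducible factors, and other forms of this core were not searched. TGCCGC is the hexamer bound by ZFP57 when methylated.
Suv39h2, chr2:3475032-3475236, minus strand: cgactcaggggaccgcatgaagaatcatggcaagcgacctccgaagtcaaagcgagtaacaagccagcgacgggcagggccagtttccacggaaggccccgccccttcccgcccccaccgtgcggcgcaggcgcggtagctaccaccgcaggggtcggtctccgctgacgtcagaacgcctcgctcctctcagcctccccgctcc
Ehmt2, chr17:34898224-34898468, plus strand: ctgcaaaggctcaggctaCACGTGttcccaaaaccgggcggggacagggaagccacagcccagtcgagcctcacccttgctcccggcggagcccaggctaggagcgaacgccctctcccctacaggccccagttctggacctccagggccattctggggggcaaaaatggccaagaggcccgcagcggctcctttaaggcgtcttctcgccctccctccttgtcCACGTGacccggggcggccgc
Trim28, chr7:13023902-13024151, plus strand: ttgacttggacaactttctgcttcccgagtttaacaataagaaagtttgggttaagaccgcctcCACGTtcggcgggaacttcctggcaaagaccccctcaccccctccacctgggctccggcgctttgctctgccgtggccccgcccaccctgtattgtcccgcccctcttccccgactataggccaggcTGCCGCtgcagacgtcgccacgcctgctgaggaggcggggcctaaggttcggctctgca
Zfp57, chr17:37000913-37001162, plus strand: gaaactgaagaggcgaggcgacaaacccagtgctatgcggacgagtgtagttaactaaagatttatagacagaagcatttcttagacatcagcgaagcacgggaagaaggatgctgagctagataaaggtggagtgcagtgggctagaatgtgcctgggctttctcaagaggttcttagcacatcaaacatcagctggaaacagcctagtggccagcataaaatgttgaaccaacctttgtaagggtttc
Zfp445, chr9:122866007-122866256, minus strand: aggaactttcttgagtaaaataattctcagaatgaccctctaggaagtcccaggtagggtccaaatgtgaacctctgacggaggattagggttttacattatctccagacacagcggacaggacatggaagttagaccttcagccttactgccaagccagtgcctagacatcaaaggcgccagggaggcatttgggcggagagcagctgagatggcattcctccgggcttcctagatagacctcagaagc

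The Ehmt2 promoter held CACGTG at 2 places, each of which reads as ACGTG on both strands, with first bases at -232 and -231 and at -26 and -25 from the start site. The Trim28 promoter held ACGTG at -186 and TGCCGC at -59. ACGTG was therefore present in 2 of the 8 promoters, beside 16.6% of 32851 RefSeq promoters of the same length, and TGCCGC in 1 of 8, beside 8.68%. TAATTG, the element bound by the oocyte factor NOBOX, was in 0 of 8, beside 7.17%. The 8 promoters stand for 1 start site per gene, whereas the 32851 come from 27025 genes, some with several start sites. The 2 matches in Trim28 do not overlap. Start sites farther downstream in Ehmt2 and Suv39h1 also had ACGTG and TGCCGC before them, and those promoters are not shown. Base composition differed among the 8 promoters. Suv39h2, Ehmt1 and Ehmt2 had 69.6%, 69.2% and 67.6% G and C with 27, 26 and 18 CG dinucleotides. Zfp57 and Zfp445 had 46.4% and 50.4% with 6 and 5 CG dinucleotides, against a median of 52.4% and 6 over all promoters. The remaining values were 62% and 17 for Trim28, 54.4% and 13 for Setdb1, and 51.6% and 11 for Suv39h1. A match of letters is a description of the sequence and not a bound site.

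Setdb1, which encodes the enzyme that TRIM28 recruits for H3K9 trimethylation, had nearly the same level in both groups. The gene lies on the minus strand of chromosome 3 (GRCm38, chr3:95323525-95357202, ENSMUSG00000015697.14), with 6853 exonic bases. It had 48011 reads or 363 RPM (95% interval 360.0 to 366) in IV 5% O2 and 13973 reads or 342 RPM (336 to 348) in IV 20% O2. Per kb this was 53.0 RPM against 49.9 RPM, at the percentiles 95.2 and 95.3 of all genes tested. The difference was 0.09 (log2 ratio 0.06 to 0.11), or -0.17 relative to the median gene, so its direction depends on the scaling: it was -0.23 after median-ratio scaling, -0.13 after quantile normalization and -0.10 with reads scaled to the total on genes. Of its exonic windows of 50 bases, 11.6% occurred more than once in the genome, and 7.13% of those of 100 bases. On the opposite strand it shares 249 exonic bases with Gm37500, which had 7.08 RPM and 6.31 RPM, and 75 with Cers2, which had 24.0 RPM and 42.7 RPM. The libraries were stranded, but strand use in the counting is not given in the sources used here, so reads of genes that overlap on opposite strands may not be told apart.

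The 2 SUV39H genes, which encode closely related enzymes of pericentromeric H3K9 trimethylation, lay on opposite sides of 0. Suv39h2 (ENSMUSG00000026646.16, chr2:3455815-3475031, minus strand, 4410 exonic bases) had 28254 reads or 214 RPM (211 to 216) in IV 5% O2 and 3921 reads or 95.9 RPM (92.9 to 99.0) in IV 20% O2. Its level was 2.23 times as high in IV 5% O2, a difference of 1.15 (1.11 to 1.20), higher than that of 85.4% of all genes tested. It was 0.89 above the median gene, and between 0.83 and 0.96 under the other scalings, below 2-fold in each of these. Suv39h2 shares 357 exonic bases with Dclre1c on the opposite strand, a gene at 37.2 RPM in IV 5% O2 and 20.9 RPM in the other column. Suv39h1 (ENSMUSG00000039231.18, chrX:8061171-8074760, minus strand, 5270 exonic bases) had 9266 reads or 70.1 RPM (68.7 to 71.5) in IV 5% O2 and 3248 reads or 79.5 RPM (76.8 to 82.2) in IV 20% O2. Its difference was -0.18 (-0.24 to -0.12), or -0.44 relative to the median gene, and it was lower in IV 5% O2 under every scaling. It shares 767 exonic bases with the antisense gene Gm14820, which had 139 RPM in IV 5% O2 against 211 RPM and was thus lower in the same direction. The part of Gm14820 reads in the Suv39h1 values was not tested. Suv39h2 was the higher of the pair in both groups, at 48.5 RPM per kb against 13.3 RPM per kb in IV 5% O2 and 21.8 against 15.1 in IV 20% O2. The ratio of Suv39h2 to Suv39h1 per kb was 3.64 (3.56 to 3.73) in IV 5% O2 and 1.44 (1.38 to 1.51) in IV 20% O2. These ratios differed 2.53-fold (2.40 to 2.66), a value that stays the same when a whole column is multiplied by any factor but that includes any reads from the overlapping genes. With the longest coding sequence in place of exons, the ratios were 2.64 and 1.05.

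The EHMT genes encode the subunits of 1 dimeric enzyme, and their levels lay close together. Ehmt1 (ENSMUSG00000036893.17, chr2:24789928-24919614, minus strand, 8116 exonic bases) had 9004 reads or 68.1 RPM (66.7 to 69.5) in IV 5% O2 and 2551 reads or 62.4 RPM (60.0 to 64.9) in IV 20% O2. Its difference of 0.12 (0.06 to 0.19) was -0.13 relative to the median gene, and it turned to -0.19, -0.08 and -0.06 under median-ratio scaling, quantile normalization and scaling to the reads on genes. Ehmt2 (ENSMUSG00000013787.15, chr17:34898469-34914052, plus strand, 5489 exonic bases) had 6200 reads or 46.9 RPM (45.7 to 48.1) in IV 5% O2 and 1316 reads or 32.2 RPM (30.5 to 34.0) in IV 20% O2. Its difference was 0.53 (0.46 to 0.63), or 0.27 relative to the median gene, and stayed between 0.22 and 0.36 under the other scalings. Per kb, Ehmt2 stood at 8.55 RPM (8.33 to 8.76) and Ehmt1 at 8.39 RPM (8.22 to 8.57) in IV 5% O2, levels whose intervals overlap. In IV 20% O2 Ehmt2 was the lower of the pair, at 5.87 RPM per kb against 7.69. The ratio of Ehmt2 to Ehmt1 thus went from 0.763 (0.714 to 0.815) in IV 20% O2 to 1.02 (0.986 to 1.05) in IV 5% O2, a 1.33-fold difference (1.24 to 1.44). Per kb of coding sequence the ratios were 0.529 and 0.707, so which gene of the pair is higher in IV 5% O2 depends on the length used.

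Trim28, which encodes the co-repressor that links KRAB zinc finger proteins to SETDB1, was the second most abundant of the 8 genes per kb. Its row (ENSMUSG00000005566.14) spans chr7:12999114-13031035 on the plus strand, which includes a non-coding transcript that begins far upstream of the RefSeq start site at position 13024152, and it has 4158 exonic bases. Zbtb45 lies inside this span on the opposite strand without shared exonic bases, at 11.7 RPM and 9.76 RPM. Trim28 had 73696 reads or 558 RPM (554 to 562) in IV 5% O2 and 14592 reads or 357 RPM (351 to 363) in IV 20% O2. Per kb this was 134 RPM against 85.9 RPM, at the percentiles 98.8 and 97.8 of all genes tested. The difference was 0.64 (0.62 to 0.67), or 0.38 relative to the median gene, and it was between 0.32 and 0.49 under the other scalings. Setdb1 per kb was 0.395 of Trim28 in IV 5% O2 and 0.581 in IV 20% O2, so their ratio was 0.680 times as high in IV 5% O2 (0.663 to 0.698).

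The 2 imprint-protecting zinc finger genes differed in opposite directions and by a wide margin in level. Zfp57 (ENSMUSG00000036036.15, chr17:37001163-37010635, plus strand, 3786 exonic bases) had 183082 reads or 1385 RPM (1379 to 1391) in IV 5% O2 and 32065 reads or 784 RPM (776 to 793) in IV 20% O2. At 366 RPM and 207 RPM per kb it was the highest of the 8 genes in both groups, at the percentiles 99.7 and 99.3 of all genes tested. It alone held 57.2% of the summed RPM per kb of the 8 genes in IV 5% O2 and 51.1% in IV 20% O2. Its difference was 0.82 (0.80 to 0.84), or 0.56 relative to the median gene, and between 0.50 and 0.63 under the other scalings. Zfp445 (ENSMUSG00000047036.8, chr9:122844529-122866006, minus strand, 7409 exonic bases) had 7597 reads or 57.5 RPM (56.2 to 58.8) in IV 5% O2 and 3572 reads or 87.4 RPM (84.5 to 90.3) in IV 20% O2. Its level in IV 5% O2 was 0.658 of that in IV 20% O2, a difference of -0.60 (-0.66 to -0.55). This was the lowest difference of the 8 genes, -0.85 relative to the median gene, with 16.5% of all genes tested below it, and it reached -0.91 under median-ratio scaling. Per kb, Zfp445 was 0.0212 (0.0207 to 0.0217) of Zfp57 in IV 5% O2 and 0.0569 (0.0550 to 0.0589) in IV 20% O2, so this ratio was 0.372 times as high in IV 5% O2 (0.357 to 0.388). Trim28 followed Zfp57 more closely, at 0.367 of it per kb in IV 5% O2 and 0.414 in IV 20% O2, or 0.885 times as high (0.866 to 0.904). Per kb of coding sequence these ratios were 0.203 and 0.230, while the 0.885 between the columns does not depend on length.

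**Figure D2:**
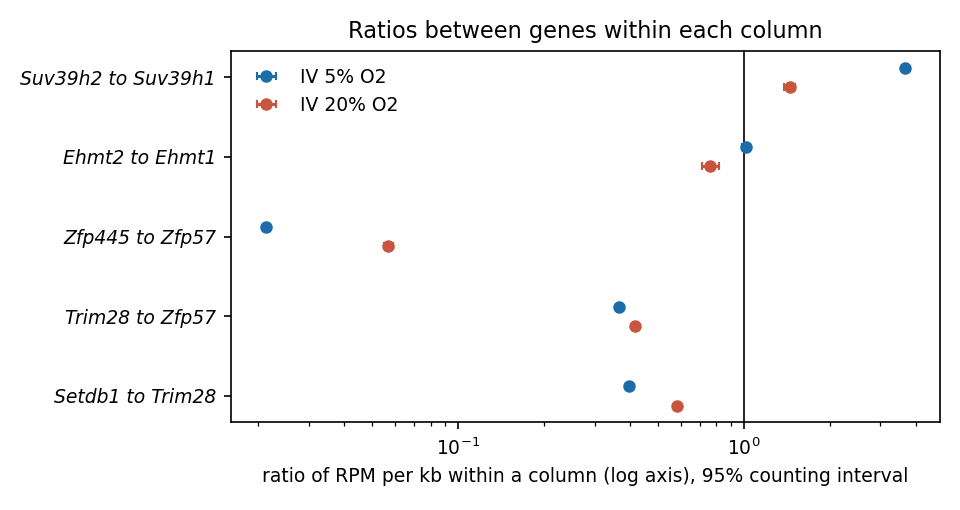
Ratios of RPM per kb between 2 of the genes within a column (log axis) for IV 5% O2 (blue) and IV 20% O2 (red), with 95% counting intervals that are often narrower than the points. The ratio of Suv39h2 to Suv39h1 was 3.64 in IV 5% O2 and 1.44 in IV 20% O2, and that of Zfp445 to Zfp57 was 0.0212 and 0.0569.

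Per kb of exon, the order of the levels in IV 20% O2 was Zfp57, Trim28, Setdb1, Suv39h2, Suv39h1, Zfp445, Ehmt1 and Ehmt2, from 207 RPM to 5.87 RPM, a range of 35.3-fold. In IV 5% O2 the first 5 places were the same, followed by Ehmt2, Ehmt1 and Zfp445, and the range was 47.2-fold, from 366 RPM to 7.76 RPM. Every neighbouring pair in either order was separated by its counting intervals except Ehmt2 and Ehmt1 in IV 5% O2. Whether neighbours differ beyond the spread between libraries could not be seen in pooled columns. With the longest coding sequence in place of exons, the order of IV 20% O2 stayed the same, but in IV 5% O2 Suv39h2 moved above Setdb1 to place 3, Zfp445 to place 6 and Ehmt2 to place 8. The 8 genes together reached 2762 RPM in the IV 5% O2 column and 1841 RPM in the other.

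**Figure D3:**
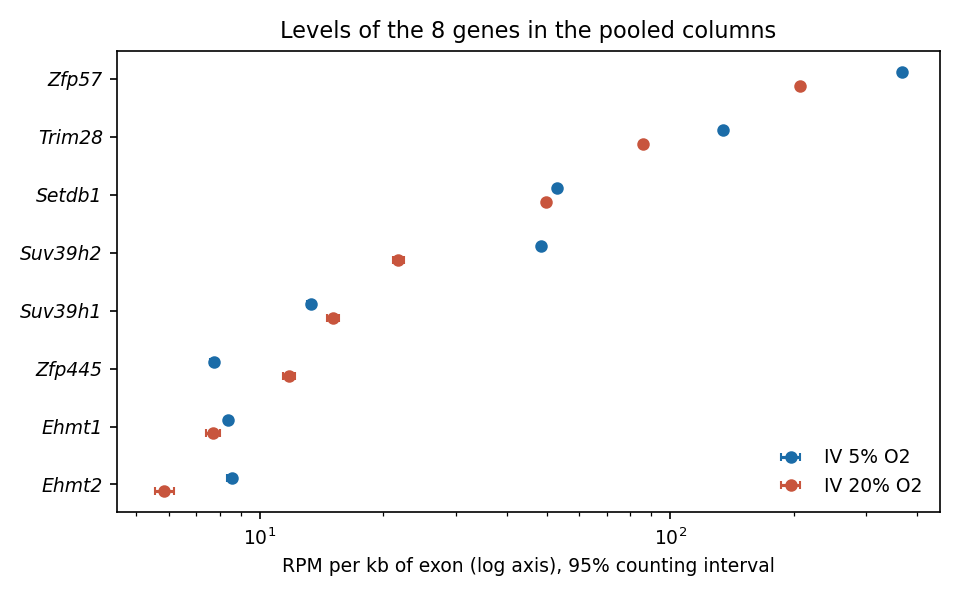
RPM per kb of exon (log axis) of each of the 8 genes in IV 5% O2 (blue) and IV 20% O2 (red), with exact 95% Poisson intervals. Zfp57 was highest in both columns, at 366 and 207 RPM per kb, while Zfp445 and Suv39h1 were the 2 genes with the higher level in IV 20% O2.

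**Figure D4:**
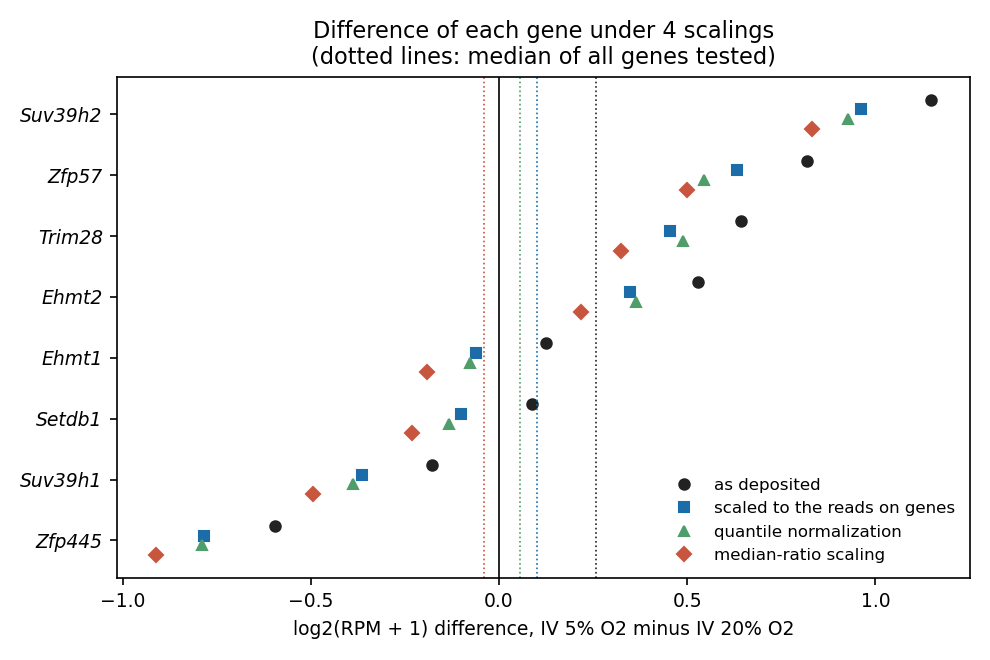
The log2(RPM + 1) difference, IV 5% O2 minus IV 20% O2, of each gene under the deposited scaling (black circles), scaling to the reads on genes (blue squares), quantile normalization (green triangles) and median-ratio scaling (red diamonds), with dotted lines at the median of all genes under each. Ehmt1 and Setdb1 are higher under the deposited scaling only, whereas Suv39h2, Zfp57, Trim28 and Ehmt2 are higher and Suv39h1 and Zfp445 lower under all 4.

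The other genes of the pathway were taken by function, and in each list the genes at least 2-fold apart and the gene with the highest level per kb are named. The 4 remaining H3K9 methyltransferase genes had a median difference of 0.65, or 0.39 relative to the median gene, with 0 at least 2-fold higher or lower on the log2(RPM + 1) scale and all 4 higher in IV 5% O2 as deposited. Mecom had 5.73 RPM against 2.74 RPM, a ratio of 2.09 but a difference of 0.85 on that scale. Prdm2, the most abundant of them per kb in the mean of both columns, had 78.4 RPM against 57.1 RPM, a difference of 0.45. Among 9 cofactor genes of these enzymes the median was 0.32, or 0.06 relative to the median gene, with 2 at least 2-fold higher, 0 lower and 7 higher in all. The 2 were Atf7ip2, whose protein is related to the SETDB1 partner ATF7IP, with 35.2 RPM against 15.6 RPM and a difference of 1.13, and the chromodomain gene Cdyl2, with 29.1 RPM against 13.5 RPM and a difference of 1.06. Both were below 2-fold under the 3 other scalings, at 0.82 to 0.97 for Atf7ip2 and 0.75 to 0.90 for Cdyl2. Uhrf1, which reads H3K9 methylation and brings DNMT1 to newly copied DNA, was the most abundant, with 601 RPM against 869 RPM and a difference of -0.53, and it was lower under every scaling. Of its windows of 50 bases 22.5% were repeated in the genome, and 4.62% of those of 100 bases.

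The 3 HP1 genes, whose proteins bind methylated H3K9, had a median of -0.08, or -0.34 relative to the median gene, and no gene 2-fold apart. Cbx1 had 86.3 RPM against 49.96 RPM, a difference of 0.78, while Cbx3 had 7.88 RPM against 14.0 RPM, a difference of -0.76, with 23.6% of its windows of 50 bases repeated. The HUSH complex silences retroelements through SETDB1, and the genes of its 3 subunits and of the associated factor Morc2a had a median of 0.04, or -0.22 relative to the median gene, and no gene 2-fold apart, with 2 higher and 2 lower. Mphosph8, its chromodomain subunit and the most abundant per kb, had 114 RPM against 82.9 RPM, a difference of 0.46. Of 10 genes of H3K9 demethylases 5 were higher and 5 lower, with a median of -0.0073, or -0.27 relative to the median gene. One was at least 2-fold higher, Kdm3a, with 27.0 RPM against 12.01 RPM and a difference of 1.11, which was 0.81 to 0.96 under the other scalings. Kdm7a, the most abundant, had 226 RPM against 210.1 RPM, a difference of 0.11 that turned negative under the 3 other scalings.

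The 12 other genes linked to imprint maintenance, Uhrf1 again among them, had a median of 0.31, or 0.05 relative to the median gene, with 3 at least 2-fold higher, 0 at least 2-fold lower, 9 higher and 3 lower. Ctcfl, at 1.88 RPM against 0.661 RPM from 249 and 27 reads, had a ratio of 2.85 but a difference of 0.80 and is not among the 3. Arid4a and Arid4b, whose proteins belong to a Sin3 co-repressor complex, both stood among the 3. Arid4a had 28.6 RPM against 7.58 RPM, a difference of 1.79 that stayed over 2-fold under every scaling, at 1.49 or more. Arid4b had 52.6 RPM against 25.7 RPM, a difference of 1.01, which was 0.70 to 0.85 under the other scalings. Naa10, an N-terminal acetyltransferase gene, had 4.74 RPM against 1.10 RPM, a difference of 1.45 from 626 and 45 reads. This also stayed over 2-fold under the other scalings, at 1.17 or more. With both values under 5 RPM, Naa10 failed the alternative filter of a mean of at least 5 RPM. At a pseudocount of 5 RPM it was below 2-fold. It shares 480 exonic bases with Arhgap4 on the same strand, which had 3.74 RPM against 0.587 RPM, and the part of Arhgap4 reads in the Naa10 values was not tested. Dppa3, whose protein protects the maternal genome from demethylation after fertilisation, was the most abundant per kb, with 493 RPM against 481 RPM, a difference of 0.03 that was negative under the 3 other scalings. Of its windows of 50 bases 27.9% were repeated, and 0% of those of 100 bases. Of the other genes named from the lists, Arid4b, Kdm7a and Mphosph8 share 257, 287 and 384 exonic bases with a gene on the opposite strand. Morc2a, Ctcfl and Mecom likewise share 483, 171 and 81 such bases. Tug1, the gene that overlaps Morc2a, had 39.4 RPM in IV 5% O2 against 72.3 RPM. These list counts stand beside the same 18.7% of all genes tested at least 2-fold higher, 9.22% at least 2-fold lower and 62.6% higher by any amount, and no list was tested as a set.

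**Figure D5:**
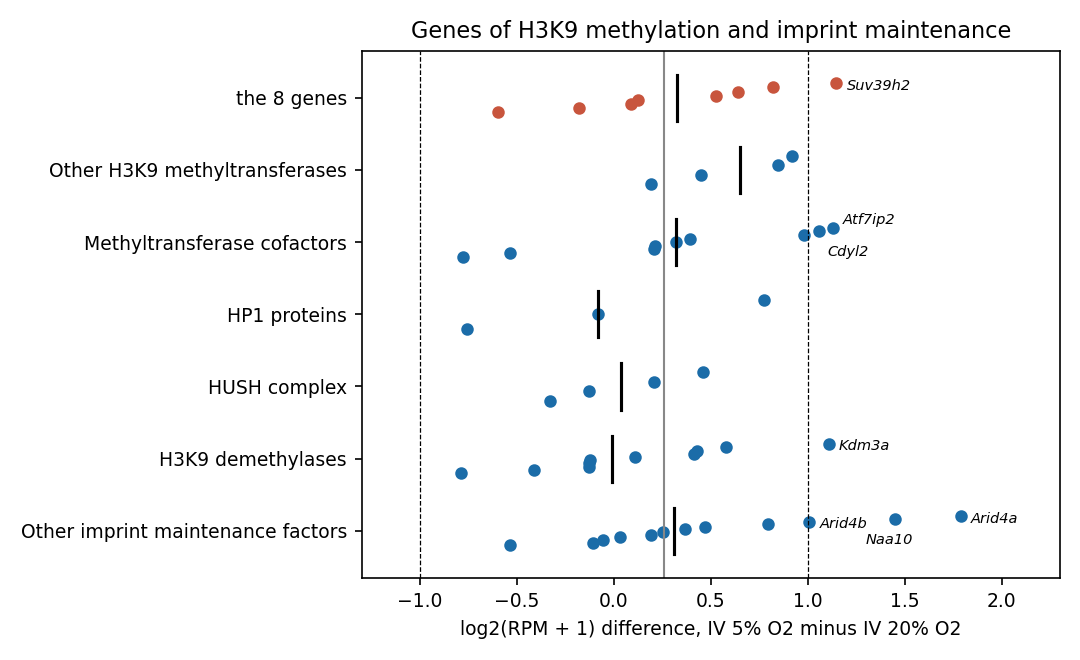
The log2(RPM + 1) difference, IV 5% O2 minus IV 20% O2, of each gene tested in the 8 genes (red points) and in 6 lists of the pathway (blue points, 1 row per list), with a black bar at the median of each list. The grey line is the median of all genes tested, 0.26, the dashed lines mark 2-fold, the genes named are at least 2-fold apart, and none of the genes in any row is at least 2-fold lower.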

How the data were processed

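The authors prepared stranded, ribosomal RNA-depleted libraries from pooled oocytes, aligned the reads to mm10 (GRCm38) and quantified them over exons in SeqMonk, and the deposited values are log2 per gene with 1 pooled column per group. The submitters' processing notes name TopHat2 2.0.9. How the libraries of a group were combined is not given in the sources used here. The methods describe a length correction, but the linear values were whole multiples of 1 read within a tolerance of 0.1 read for 99.98% of rows in both columns, whatever the length, so the values were read as RPM. Genes without reads, listed at 0.9 of a read, were set to 0. The floor for a gene without reads, 3 reads, was 0.0227 RPM in the IV 5% O2 column and 0.0734 RPM in the IV 20% O2 column. Where a name had several rows (18 names), its row of highest mean was taken. One value column, headed as in vivo class IV oocytes, matches none of the samples and was not used. Lengths are merged exons of GENCODE M21. Differences used a pseudocount of 1 RPM and genes averaging 1 RPM or more. The planned limma fit needs a value per library and was replaced by counts of genes at least 2-fold apart. Alternatives were coding length, scaling to the reads on genes, quantile normalization, median-ratio scaling, sums over the rows of a name, genes averaging 5 RPM or more, all genes without a filter, and pseudocounts of 0.1 and 5 RPM. Genes named from the lists were those at least 2-fold apart and the one with the highest level per kb, and Cbx3, Ctcfl and Mecom were named after their values were seen. The genes and lists were chosen with earlier results of these data known. The steps were tested on simulated data. The software was scipy 1.17.1 and numba 0.67.0, with matplotlib 3.10.9, pandas 2.3.3 and numpy 2.4.6, under Python 3.11.15.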

Additional observations from a re-analysis of the deposited data

How the results depend on the processing

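Suv39h2, Zfp57, Trim28 and Ehmt2 were higher and Suv39h1 and Zfp445 lower in IV 5% O2 under every alternative run. Setdb1 and Ehmt1 reversed, to -0.23 and -0.19 under median-ratio scaling, -0.13 and -0.0783 under quantile normalization, and -0.10 and -0.0612 with reads scaled to the total on genes. Under each of these 3 scalings 0 of the 8 genes were at least 2-fold higher, against 1 as deposited. Of the 14704 genes tested as deposited, 11.96%, 12.2% and 15.2% were at least 2-fold higher under these scalings, against 18.7% as deposited. The median of the 8 genes was 0.0135, 0.14 and 0.14. The median of all genes was -0.0404 under median-ratio scaling, which by construction brings the median ratio between the columns to 1. Over all genes, 2753 were at least 2-fold higher and 1356 lower as deposited. These became 1202 and 706 at a pseudocount of 5 RPM, and 1691 and 917 with a mean of at least 5 RPM. They were 1700 and 2031 under median-ratio scaling and 1764 and 1866 under quantile normalization. With reads scaled to the total on genes they were 2427 and 1869. The share of 2-fold differences that were higher was 67.0% as deposited, 45.6%, 48.6% and 56.5% under median-ratio scaling, quantile normalization and scaling to the reads on genes.

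In the same order of those 3 scalings, list medians were 0.37, 0.44 and 0.50 for the other methyltransferases, 0.0040, 0.12 and 0.13 for cofactors, -0.39, -0.27 and -0.27 for HP1 genes, -0.27, -0.13 and -0.14 for the HUSH complex (reversed in each), -0.32, -0.21 and -0.19 for demethylases, and -0.0067 (reversed), 0.20 and 0.12 for the other imprint factors. A pseudocount of 5 RPM gave 0.45 for the other methyltransferases, and a mean of at least 5 RPM gave 0.45 for them, -0.12 for demethylases and 0.25 for the other imprint factors. With coding length in place of exon length, chosen for the pair ratios after the data were seen, the ratio of Ehmt2 to Ehmt1 per kb in IV 5% O2 reversed from 1.02 to 0.707. No paired analysis was possible because each column pools the libraries of a group and carries no replicate number, and leaving out a replicate was not run for the same reason. The cause of these shifts was not tested. The shallower IV 20% O2 column, by a factor of 3.23, limits low genes such as Naa10, while Ehmt2, with the fewest reads of the 8 genes, had 1316 in that column.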

Other observations

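Zinc finger genes whose symbol is Zfp and a number were described after the values were seen. Among the 328 listed, 314 passed the filter, with a median difference of 0.0161, and 34 (10.8%) were at least 2-fold higher and 40 (12.7%) at least 2-fold lower in IV 5% O2, beside 18.7% and 9.22% of all genes tested. Under median-ratio scaling, chosen like the next 2 after the data were seen, 20 (6.37%) were higher and 63 (20.1%) lower, beside 11.96% and 13.6% of the 14704 genes. The counts were 23 higher and 57 lower under quantile normalization, beside 12.2% and 12.5% of all genes, and 24 and 58 with reads scaled to the total on genes, beside 15.2% and 12.04%. The median of the zinc finger genes was negative under all 3. Zfp57 had the highest level of the 314 per kb of exon in both columns, 366 RPM and 207 RPM, where the median gene of the group had 3.19 RPM and 3.47 RPM. Next in IV 5% O2 was Zfp655, at 78.7 RPM per kb in that column and 69.2 RPM per kb in IV 20% O2. Zfp445 had place 79 of 314 in IV 5% O2 and place 40 in IV 20% O2. The differences of 49 of these genes lay above that of Zfp57, and those of 74 lay below that of Zfp445.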
